A study of Rattus norvegicus with 4 samples.

Results

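The EGF family ligands and ERBB receptors were examined in the oxyntic mucosa of the rat, the glandular lining of the stomach body that secretes acid. The members were all probe sets whose platform gene symbol was Egf, Tgfa, Hbegf, Areg, Ereg or Btc, which encode ligands, or Egfr, Erbb2 or Erbb3, which encode receptors. This gave 10 of the 15866 probe sets in the deposited table, for 9 of its 10411 singly named genes. Each gene had 1 probe set except Egfr, which had 2.

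All animals were female Sprague-Dawley rats of 8 weeks, fasted overnight and anaesthetised with fentanyl, haloperidol and midazolam before the mucosa was scraped off at 21 days. The treated group of 6 rats received octreotide LAR at 5 mg per animal, a slow-release depot of a somatostatin analogue, and their RNA was pooled by 2 animals onto 3 Affymetrix RAE230A chips, called pools 1, 2 and 3 here. The 8 control rats received the LAR vehicle in a matching volume, and their RNA was pooled onto 1 chip. The vehicle sample's source name also mentions octreotide LAR, and its title, which gives vehicle, was followed. Each chip therefore averages several animals, the vehicle group has no replicate, and in RNA from scraped tissue fewer cells of a type and less RNA per cell cannot be told apart.

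EGF-type ligands are made as membrane-anchored precursors that metalloproteases cut free. They bind ERBB receptors, which pair up and signal through RAS-MAPK and PI3K-AKT to drive epithelial growth and repair. TGF-alpha is the ligand best known from the gastric mucosa, where it restrains acid secretion and, in excess, expands the surface mucous cells. ERBB2 binds no EGF ligand itself and serves as a partner, while ERBB3 has a weak kinase and is the receptor of neuregulins.

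Btc, Areg and Ereg are successive protein-coding genes on rat chromosome 14 in the RefSeq annotation of the GRCr8 assembly, followed by the related ligand gene Epgn. The 250 bases before the start of Areg and of Btc are shown because Areg had the largest difference of the members tested and Btc the widest spread between treated pools. A difference between the genes was not tested. Both come from the RefSeq promoter table of GRCr8, which held 7 of the 9 members. Areg lies on the minus strand, with this window at chr14:17265642-17265891, and Btc on the plus strand, at chr14:16992418-16992667. Capitals mark TGACGTCA, the cAMP response element, and GGGCGG, the GC box, each searched on both strands, and TATAAA, the TATA box, searched on the strand shown. A GC box on the opposite strand is in capitals as CCGCCC, its reverse complement.
Areg: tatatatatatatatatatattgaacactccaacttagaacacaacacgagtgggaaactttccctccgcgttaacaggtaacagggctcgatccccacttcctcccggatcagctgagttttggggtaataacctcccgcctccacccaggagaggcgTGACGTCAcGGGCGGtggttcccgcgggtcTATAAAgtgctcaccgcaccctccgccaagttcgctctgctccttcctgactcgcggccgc
Btc: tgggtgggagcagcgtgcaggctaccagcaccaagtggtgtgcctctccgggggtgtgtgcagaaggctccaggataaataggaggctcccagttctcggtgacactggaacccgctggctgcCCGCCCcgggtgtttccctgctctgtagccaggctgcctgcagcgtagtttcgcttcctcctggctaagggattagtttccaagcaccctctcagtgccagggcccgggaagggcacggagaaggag
The Areg window held all 3 motifs, starting 91 bases (cAMP response element), 82 bases (GC box) and 61 bases (TATA box) before the gene start. The Btc window held 1 GC box, starting 127 bases before the start. Among 33469 such windows, 1.59% held the cAMP response element, 30.5% a GC box and 8.06% the TATA box. Of the 7 members in the table, Areg alone held the first and the third, while Tgfa, Areg, Btc, Egfr and Erbb2 held a GC box. The motifs overlap no other motif in these windows, and a match is only a match of letters.

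The comparison asked which of these growth signals differed in oxyntic mucosa after 21 days of the somatostatin analogue. No member passed the test. Areg, Ereg and Hbegf had higher signals on all 3 treated chips than on the vehicle chip, no member was lower on all 3, and the other 7 probe sets had treated signals on both sides of the vehicle value. Of all 15866 probe sets, 24.4% were higher on every treated chip and 24.0% lower on every one, so 3 of 10 higher is close to the background. Of the 5 member probe sets bright enough to test, 0 were called by limma at an adjusted p under 0.05, with 0 at an unadjusted p under 0.05; over all 9520 tested, 0.105% were called and 4.57% had an unadjusted p under 0.05. Testing required a mean over the 4 chips of at least 144.7 in signal units, a mean taken on the log2 scale. Differences are on a log2(signal + 16) scale, which understates the change of dim probe sets.

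**Figure D1:**
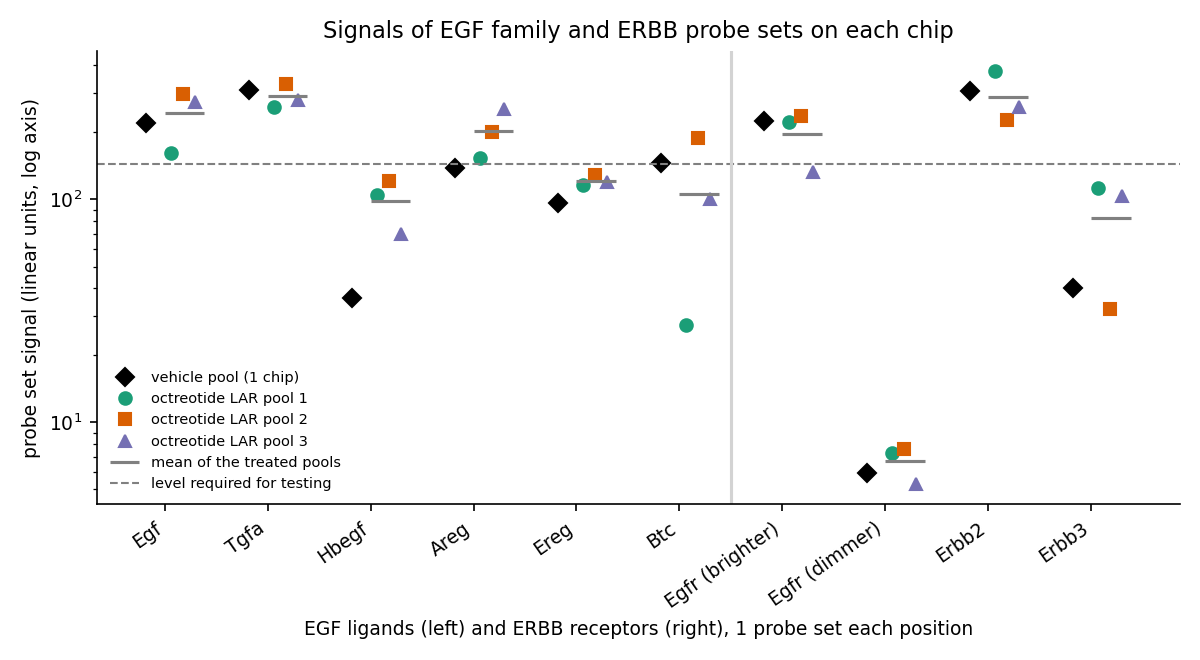
Signal of each member probe set on each chip, on a log axis, with the vehicle chip as a black diamond, the 3 treated pools as coloured points and their mean as a grey bar. Hbegf, Areg and Ereg lie above the vehicle chip on all treated pools, whereas Btc runs from 27.4 to 188.9 and the dimmer Egfr probe set stays between 5.3 and 7.6.

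Egf encodes epidermal growth factor, best known from the salivary glands and kidney and an inhibitor of gastric acid secretion. Its probe set 1368325_at read 220.0 on the vehicle chip and 162.0, 298.4 and 273.7 on pools 1, 2 and 3. The vehicle value lay inside the treated range, with pool 1 below it and the other pools above it. The treated mean was 244.7 ± 72.7 (SD, n = 3), which is 0.10 higher on the log2 scale, with a 95% interval of -0.68 to 0.88 (limma adjusted p = 0.9998). The sign rests on pool 2, since without it the log2 difference was -0.056.

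Tgfa encodes transforming growth factor alpha, the ligand described above. Its probe set 1387450_at had 310.2 on the vehicle chip and 259.3, 329.4 and 280.5 on pools 1, 2 and 3. It was the tightest of the tested members, with a treated mean of 289.7 ± 36.0 (SD, n = 3). The vehicle value lay inside the treated range again. The log2 difference was -0.10 and its 95% interval reached from -0.71 to 0.51, which as a ratio runs from 0.612 to 1.42 (limma adjusted p = 0.9998). It was -0.028 without pool 1 and -0.19 without pool 2. Shifts of either sign within that interval are compatible with these signals.

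Areg encodes amphiregulin, a low-affinity ligand of the EGF receptor made by many epithelia. Its probe set 1369871_at had 138.3 on the vehicle chip and 153.4, 201.0 and 253.4 on pools 1, 2 and 3. All 3 treated pools lay above the vehicle chip, pool 1 by only 0.13 on the log2 scale and pool 3 by 0.80. The treated mean was 202.6 ± 50.0 (SD, n = 3). At 0.48 on the log2 scale, 95% interval -0.32 to 1.27, this member had the largest difference of those tested, but did not pass (limma adjusted p = 0.9998, unadjusted p = 0.22). Over all 9520 probe sets tested, 9.16% lay at least that far from the vehicle chip in either direction. The vehicle signal of Areg was under 144.7, so the probe set was tested because of its treated signals. Over the 9 alternative settings its difference stayed between 0.31, without pool 3, and 0.65, without pool 1, and its limma adjusted p between 0.86 and 1.0.

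The tested probe set with the pattern nearest to Areg was that of Cnksr3. Over the 3 pools its largest gap from the differences of Areg was 0.082 on the log2 scale. Next came Tceanc2 and Ctsc, with largest gaps of 0.102 and 0.112. These 3 were the nearest of 8078 singly named probe sets of other genes, compared over 3 pools that share 1 vehicle chip, and each had a limma adjusted p of 0.9998.

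Hbegf encodes heparin-binding EGF-like growth factor, which also occurs as an uncut membrane protein and is known as a gastrin-responsive ligand in gastric epithelial cells. Its probe set 1368983_at was dim, with 36.2 on the vehicle chip and 105.0, 120.9 and 69.8 on pools 1, 2 and 3. Every treated pool lay above the vehicle chip, and even the lowest, pool 3, was 0.72 higher on the log2 scale. The treated mean was 98.6 ± 26.2 (SD, n = 3), and the mean log2 difference was 1.11, resting on a dim vehicle signal. The probe set lay under the level required for testing. With that requirement dropped, its 95% interval ran from -0.13 to 2.35 (limma adjusted p = 0.9996, unadjusted p = 0.073), in a fit over 15866 probe sets that called 0 at an adjusted p under 0.05 and had 4.89% at an unadjusted p under 0.05. The size depends on the pseudocount, being 0.69 with 64 added in place of 16.

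Ereg encodes epiregulin, which binds EGFR and ERBB4 and is known from inflamed and regenerating epithelium. Its probe set 1369587_at had 96.4 on the vehicle chip and 116.1, 128.7 and 119.5 on pools 1, 2 and 3. The treated pools were close together and all above the vehicle chip. Their mean was 121.4 ± 6.52 (SD, n = 3), a spread of 0.07 on the log2 scale where the median probe set of the same decile of mean signal had 0.36. The mean log2 difference was 0.29, and with dim probe sets kept its 95% interval ran from -0.75 to 1.33 (limma adjusted p = 0.9996).

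Btc encodes betacellulin, a ligand of EGFR and ERBB4 named for its growth effect on pancreatic beta cells. Its probe set 1387644_at had 146.0 on the vehicle chip and 27.4, 188.9 and 100.7 on pools 1, 2 and 3. Pools 1 and 3 lay below the vehicle chip and pool 2 above it. The highest treated pool was 6.89 times the lowest, the widest range of any member. Its SD over the treated pools was 1.13 on the log2 scale, above that of 97.2% of the probe sets in the same decile, whose median was 0.36. Its mean log2 difference of -0.68 was carried by pool 1, since without that pool it was -0.07, and it was -1.19 without pool 2. In the fit that kept dim probe sets its 95% interval ran from -2.60 to 1.24 (limma adjusted p = 0.9996).

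**Figure D2:**
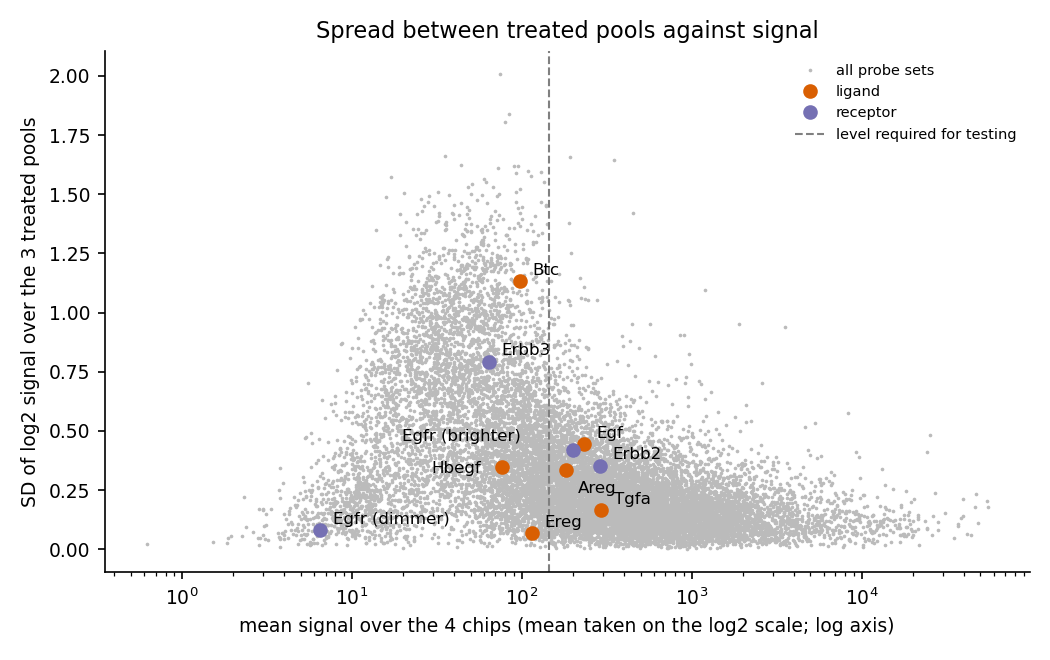
SD of log2 signal over the 3 treated pools against mean signal on a log axis, with all probe sets in grey, ligands in orange and receptors in purple. Btc, at an SD of 1.13, lies high among probe sets of its brightness and Ereg, at 0.07, low; the dashed line is the level required for testing, 144.7.

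Egfr encodes the receptor for all 6 ligands listed here. Its brighter probe set 1370830_at had 223.8 on the vehicle chip and 222.9, 235.6 and 132.3 on pools 1, 2 and 3. Pools 1 and 2 were close to the vehicle chip and pool 3 was low. The treated mean was 196.9 ± 56.3 (SD, n = 3), and the log2 difference was -0.21, 95% interval -1.02 to 0.60 (limma adjusted p = 0.9998). Without pool 3 the difference was 0.032. The second Egfr probe set, 1385413_at, had 5.9 on the vehicle chip and 7.3, 7.6 and 5.3 on the treated pools, within the dimmest decile of the chip. At such a signal the pseudocount largely sets the difference, which was 0.05 with 16 added and 0.15 with 1 added.

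Erbb2 encodes the shared partner receptor, also called HER2 or Neu. Its probe set 1387813_at had 306.9 on the vehicle chip and 375.2, 227.5 and 260.7 on pools 1, 2 and 3. Pool 1 was above the vehicle chip and the other pools below it. The treated mean was 287.8 ± 77.5 (SD, n = 3), and the log2 difference was -0.12, 95% interval -0.80 to 0.57 (limma adjusted p = 0.9998). Without pool 2 the difference was 0.027.

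Erbb3 encodes the neuregulin receptor that recruits PI3K. Its probe set 1369088_at had 40.1 on the vehicle chip and 113.0, 32.1 and 103.7 on pools 1, 2 and 3. Pools 1 and 3 lay well above the vehicle chip and pool 2 slightly below it. The treated mean was 82.9 ± 44.3 (SD, n = 3), and the mean log2 difference was 0.69, 95% interval -0.91 to 2.30 when dim probe sets were kept (limma adjusted p = 0.9996). Leaving out pool 2 gave 1.15, and leaving out pool 1 or 3 gave 0.44 or 0.49.

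**Figure D3:**
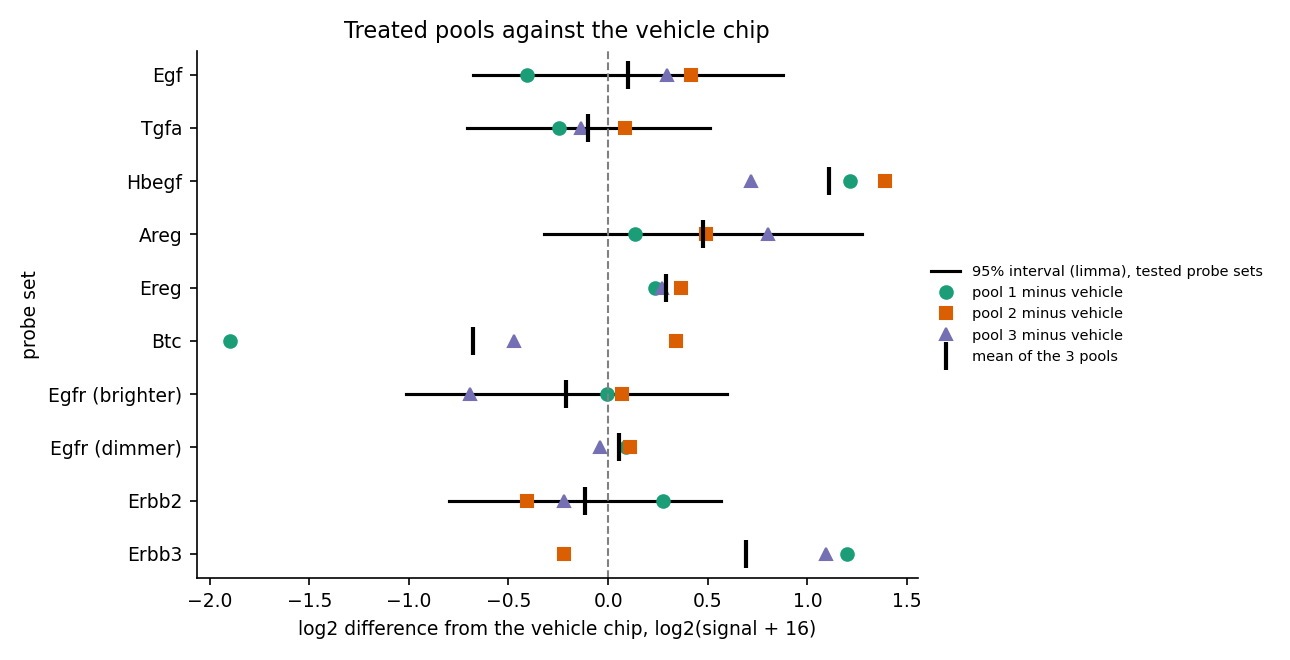
Log2 difference of each treated pool from the vehicle chip (coloured points), their mean (black tick) and, for the 5 tested probe sets, the limma 95% interval. Every interval crosses 0, and the means run from -0.68 for Btc to 1.11 for Hbegf.

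Among themselves the members showed no common direction. Of the 10 probe sets, 6 were higher in the mean and 4 lower, beside 7794 higher and 8072 lower of all 15866. On single pools 6, 8 and 5 were higher on pools 1, 2 and 3, beside 49.2%, 51.6% and 49.2% of all probe sets. For the 5 tested the median log2 difference was -0.10, against -0.003 over all probe sets tested, and it was -0.01, 0.08 and -0.14 on pools 1, 2 and 3. The pool that stood farthest from the others also differed by member. On the log2 scale, pool 1 was the low one for Egf and Btc and the high one for Erbb2, pool 2 was the low one for Erbb3, and pool 3 was the low one for Egfr and Hbegf.

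All 10 member probe sets had a mean signal under 300, as did 9068 of all 15866. Such signals belong to probe sets and do not rank the genes by expression. As a check of the labelled tissue, the proton pump subunits Atp4a and Atp4b of parietal cells had 26692 and 39974 on the vehicle chip and between 23835 and 42462 on the treated chips. The median signal of a chip lay between 223.7 and 233.4, and any pair of chips had an r of 0.961 to 0.969 over the 9520 probe sets tested, on the log2 scale, a description across probe sets. The median SD over treated pools was 0.35 on the log2 scale for the 10 members and 0.24 for all probe sets. These are not matched for signal, and the median SD of the deciles of mean signal that hold members ran from 0.22 to 0.48.

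Markers of squamous epithelium, which lines the rat forestomach, were higher on the treated chips. The 12 squamous forestomach markers with a probe set, such as Krt5, Krt1 and Loricrin, had a summed signal of 2253 on the vehicle chip and 6701 to 10696 on the treated chips. All 13 of their probe sets were higher, 6 of them called (0 when dim probe sets were kept), with median log2 differences of 1.98, 1.53 and 1.38 on pools 1, 2 and 3. None was at 0 on any chip. The vehicle signals of Lgals7, Sprr3, Krt5, Krt14, Krt15 and Sfn, the first pair among those called, were under 144.7, so these were tested because of their treated signals. Areg, Ereg and Hbegf were higher on the same chips. The other 7 member probe sets had treated signals on both sides of the vehicle value. Areg was highest on pool 3 and Hbegf and Ereg on pool 2, while the squamous sum was highest on pool 1. The part of squamous epithelium in the members' signals was not tested. Parietal cell markers, of which 8 had a probe set, summed to 92747 on the vehicle chip and to between 84831 and 99183 on the treated chips. Atp4a and Atp4b made up most of these sums. Of the 11 tested parietal probe sets, 3 were higher in the mean and 8 lower, 1 and 4 of them on every treated chip. With 0 called, Kcnq1 was farthest at -0.58 (limma adjusted p = 0.99). Surface and pit mucous markers, 6 with a probe set, summed to 142440 on the vehicle chip and to between 153630 and 160050 on the treated chips. Markers of enterochromaffin-like cells, 6 with a probe set, summed to 16166 on the vehicle chip and to between 7867 and 8503 on the treated chips. All 7 of their tested probe sets were lower, and 1, that of the histamine-forming enzyme Hdc, was called (limma adjusted p = 0.0027; 0.095 when dim probe sets were kept). The part of these cells in the members' signals was not tested. For chief cells, the mean log2 differences of the 4 tested probe sets were negative, with 0 called. Cym, the protease chymosin, was farthest at -1.60, and Cblif was at -0.11, each with pools 1, 2 and 3 below the vehicle chip. Pga5 at -0.14 and Pgc at -0.03 had pools on both sides of it. Lipf, too dim to be tested, went the other way, with 22.1 on the vehicle chip and 79.8, 112.7 and 87.8 on pools 1, 2 and 3. The mucous neck cell peptide Tff2 was at 0.56 and did not pass.

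The rest of the pathway was described with 6 lists holding 92 gene symbols, of which 68 had a probe set named here. Of their 110 probe sets, 73 were tested and 0 were called by limma; 32 were higher and 41 lower, with a median log2 difference of -0.02. An unadjusted p under 0.05 was found for 3 of the 73, or 4.11%, beside 4.57% over all probe sets tested. Treated values lay on 1 side of the vehicle value on every treated chip for 20 higher and 17 lower, 50.7% together, beside 48.9% over all probe sets tested.

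The other ligands and receptors of the family, Nrg1, Nrg2 and Erbb4, had 11 probe sets, and all 11 were under the level required for testing. Of these, the brightest Nrg1 probe set, 1369783_a_at, had 150.9 on the vehicle chip and 159.7, 172.0 and 81.4 on pools 1, 2 and 3. Erbb4, a further receptor of the neuregulins, had 40.4 on the vehicle chip and 66.8, 19.9 and 10 on the treated pools. Neither of these probe sets kept to 1 side of the vehicle chip. Among the rest, Nrg1 1371218_a_at and 1388258_at and Nrg2 1387990_at were higher on every treated pool. Nrg2 1390044_at was lower on every one, and the remaining Nrg1 probe sets lay on both sides.

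Genes that govern the release of the ligands had 9 tested probe sets, 3 higher and 6 lower in the mean, with a median log2 difference of -0.09. Timp3 encodes an inhibitor of the ligand-releasing metalloproteases, and its probe set 1389836_a_at had 933.8 on the vehicle chip and 1142.7, 1237.4 and 1440.0 on the treated pools. Its log2 difference of 0.43 did not pass (limma adjusted p = 0.9998), and a second tested Timp3 probe set was at 0.01. Cd9, a tetraspanin that associates with membrane-bound HB-EGF, had 805.2 on the vehicle chip and 1177.2, 857.4 and 952.2 on the treated pools, and did not pass either.

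Adaptors and members of the RAS-MAPK cascade had 15 tested probe sets, 8 higher and 7 lower, with a median log2 difference of 0.02. The kinase Src had 190.1 on the vehicle chip and 332.8, 255.5 and 303.2 on the treated pools with probe set 1389030_a_at, while a brighter Src probe set differed by 0.02 on the log2 scale. The adaptor Crk had 637.3 on the vehicle chip and 735.9, 872.2 and 681.6 on the treated pools. The PI3K-AKT, PLC and STAT list had 17 tested probe sets, 6 higher and 11 lower, with a median of -0.09. Stat3, a transcription factor downstream of EGF and cytokine receptors, had 2937.7 on the vehicle chip and 2297.4, 2009.8 and 1950.1 on the treated pools with probe set 1370224_at, all below the vehicle chip. Its log2 difference of -0.49, 95% interval -0.87 to -0.11, did not pass over all probe sets (limma adjusted p = 0.99, unadjusted p = 0.015), and a dimmer Stat3 probe set was at -0.36. Mtor, the kinase that couples AKT to protein synthesis, had 376.0 on the vehicle chip and 472.5, 522.1 and 519.5 on the treated pools.

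Feedback regulators and genes of receptor turnover had 20 tested probe sets, 7 higher and 13 lower, with a median log2 difference of -0.08. Lrig1 encodes a membrane protein that promotes the breakdown of ERBB receptors. Its signal was 1675.2 on the vehicle chip and 2671.2, 2243.3 and 2726.8 on pools 1, 2 and 3. All treated pools lay above the vehicle chip, and the log2 difference was 0.59, 95% interval 0.21 to 0.98. This was the smallest unadjusted p of the pathway lists, 0.0056, and it did not pass over all probe sets (limma adjusted p = 0.68, and 0.13 to 0.996 over the alternatives). Spry1, an inhibitor of receptor tyrosine kinase signalling, had 112.4 on the vehicle chip and 249.2, 191.3 and 166.4 on the treated pools, a log2 difference of 0.75 that did not pass (limma adjusted p = 0.9998). Like Areg, Spry1 was under 144.7 on the vehicle chip and was tested because of its treated signals.

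Early target genes of the pathway had 12 tested probe sets, 8 higher and 4 lower, with a median log2 difference of 0.19 and 0 called. Ier3, an immediate early gene, had 1099.0 on the vehicle chip and 1466.1, 1371.4 and 1283.5 on the treated pools. Ccnd1, the cyclin that drives entry into the cell cycle, had 542.3 on the vehicle chip and 629.7, 744.0 and 689.7 on the treated pools with probe set 1371150_at. Its log2 difference was 0.33, and brighter Ccnd1 probe sets were at 0.17 and 0.26; none passed.

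**Figure D4:**
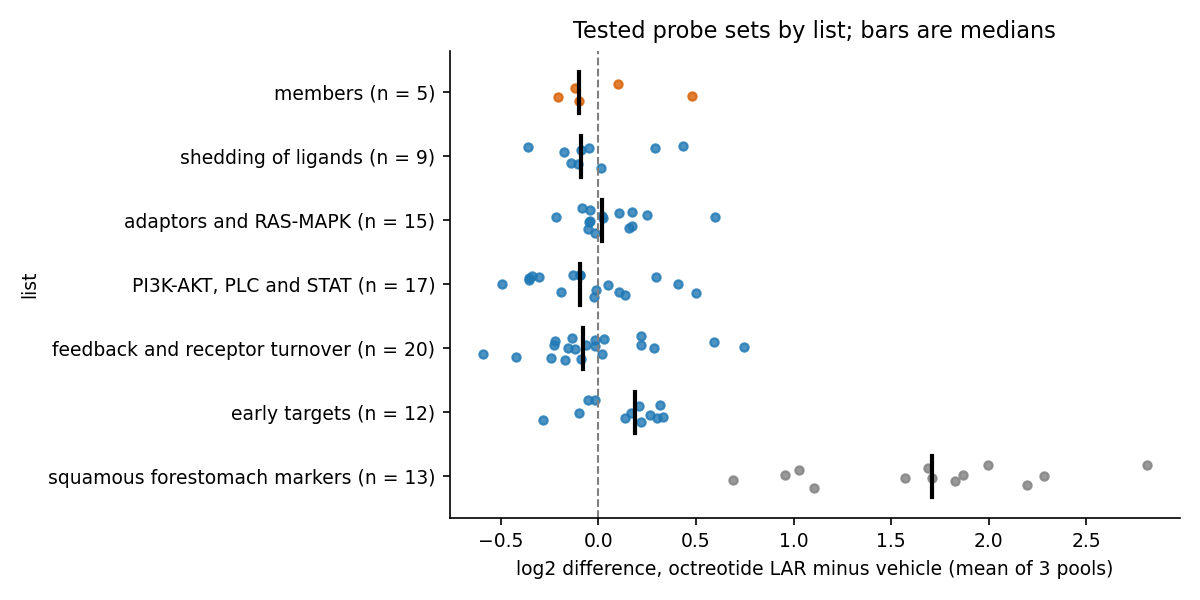
Log2 difference of each tested probe set (mean of 3 pools minus the vehicle chip) by list, with black bars at the medians. The 5 members and the 5 pathway lists that hold tested probe sets have medians between -0.10 and 0.19, while the squamous forestomach markers have a median of 1.71.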

How the data were processed

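The authors deposited linear signal intensities, 1 value for each probe set on each chip. How these were computed and scaled is not given in the sources used here, and the mean without the 2% at each end was 496.8 to 497.2 on every chip. Equal means hide any change in total messenger RNA. Per the file headers, the chips shared a lot and hybridisation date, each with its own fluidics module. Detection calls were not used here.

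Signals were taken as log2(signal + 16), and probe sets with a mean under the 40th percentile were left out. limma 3.58.1 (R 4.3.3) compared 3 treated chips with 1 vehicle chip over all 9520 remaining probe sets, two-sided, with trended eBayes (2 residual and 11.5 prior degrees of freedom) and Benjamini-Hochberg adjustment at 0.05. The fit takes the spread of the treated chips for the single vehicle chip too. It makes no allowance for the vehicle chip pooling 8 rats and each treated chip 2, so neither do its intervals and p-values. An exact permutation of 3 chips against 1 cannot reach the threshold and was not used.

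Gene names come from the platform annotation, with symbols brought up to date from the GRCr8 gene table by Entrez ID (12748 of 12783 matched). All member probe sets are named. From each pathway list the 2 probe sets with the smallest unadjusted p are named, as are the 3 nearest in pattern to the member with the largest tested difference. The named Nrg1, Nrg2 and Erbb4 probe sets, other probe sets of named genes and the named markers were chosen after their values were seen. Members and lists were chosen with earlier results of these data known. Alternatives changed the pseudocount, filter, scaling, trend and set of treated pools.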

Additional observations from a re-analysis of the deposited data

How the results depend on the processing

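No member probe set and no pathway probe set was called by limma under any of the 9 alternatives, where an unadjusted p under 0.05 was found for 0 member and 2 to 5 pathway probe sets. Over all probe sets the 10 calls became 0 without the filter (of 15866), 5 with quantile normalization, 5 when each chip was centred on its 75th percentile and 1 without the trend, and ran from 31 to 55 when 1 treated pool was left out (53, 55 and 31 without pools 1, 2 and 3). The median log2 difference of the members was 0.077 without the filter, which adds the 5 dim ones, against -0.10 with it, and ran from -0.056 to 0.0035 when 1 pool was left out. Leaving out 1 pool turned the sign of Egf, which ran from -0.056 without pool 2 to 0.35 without pool 1, of Erbb2, from -0.31 without pool 1 to 0.027 without pool 2, and of Egfr, from -0.35 without pool 2 to 0.032 without pool 3, in all 3 of 90 comparisons of a member with its main value. The 13 other probe sets named for the smallest unadjusted p of a pathway list or for nearness to Areg were also followed. They kept their sign and their side of the threshold in all 117 comparisons. No paired analysis was possible because the vehicle group has 1 chip. With 1 vehicle chip and member signals near or under the level required for testing, the intervals of the tested members span at least 1.22 on the log2 scale.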
